A study of Mus musculus with 26 samples.

Results

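Gene expression was compared between freshly isolated pancreatic islets of old and of young wild-type C57/Bl6J mice, which the labels describe as male. The old mice were 56 weeks of age and the young mice 5 weeks. The comparison rests on 4 of the 26 arrays of the study, namely the 2 labelled as fresh islets of old mice and the 2 labelled as fresh islets of young mice. No treatment or allele separates these groups. The labels call the replicates biological but do not say how many mice went into a sample or whether mice were pooled. The spread behind a p-value is that within the groups of all 26 arrays, most of them cultured islets. A p-value therefore reflects no more than how such samples vary, and part of that may be technical. Total RNA was amplified through a pair of cDNA synthesis rounds and hybridised to Affymetrix whole-genome mouse arrays, and the deposited values are probe set intensities on a linear scale. The other arrays hold islets cultured at set glucose concentrations. Of these, the 2 arrays of old islets at 11 mM glucose and 2 of the 4 arrays of young islets at 11 mM serve here as a second age comparison that shares no array with the fresh one.

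Islets are clusters of endocrine cells within the exocrine pancreas. Most are beta cells, which make insulin, and alpha, delta and PP cells make glucagon, somatostatin and pancreatic polypeptide. Endothelial cells, pericytes, fibroblasts and a few immune cells lie among them, and isolation by collagenase can leave acinar cells, which make digestive enzymes, attached. Beta cells of young rodents divide while the islet mass grows with the body, and their division rate is known to decline with age as cell cycle inhibitors accumulate and Polycomb repression weakens.

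Each of the 12580 genes tested is represented by its brightest probe set. A probe set was kept where it lay above its array's median on at least 2 arrays. A gene that is high in 1 group alone can thus enter, and for such a gene the filter favours a difference between the groups. Log2 differences are of log2(intensity + 16), old minus young, with limma's moderated standard error (SE) and Benjamini-Hochberg adjusted p-values over all genes. A gene is said to rise or fall in old islets where that adjusted p is under 0.05, and n = 2 arrays per group throughout. The added 16 makes a difference understate the change of a dim gene. In bulk RNA, fewer cells of a type and less RNA per cell cannot be told apart. Values of a gene are given in the order young replicates 1 and 2, then old replicates 1 and 2. The replicate numbers are those of the labels, and the main fit does not pair arrays by them.

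All 4 fresh arrays had a ratio of the 5' to the 3' Gapdh control probe set between 1.14 and 1.48, and they belong to the same of 2 sets of arrays that this ratio separates (set A). The median intensity was 42 on both young arrays and 38 and 37 on the old ones. The 3' Gapdh control itself was 938 and 952 on the young arrays and 1878 and 1962 on the old arrays. Across genes the log2 values of the young pair correlated at r = 0.98 and those of the old pair at 0.985, against 0.963 to 0.965 between ages (genes are not independent replicates). Uty, Eif2s3y and Kdm5d, genes of the Y chromosome, had signals of 166 to 733 on all 4 arrays and Xist, the RNA of the inactive X, 1 to 13. The genes that encode the islet hormones lay between 2688 and 16917 on all 4 arrays.

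In old fresh islets 125 genes rose (0.994% of those tested) and 140 fell (1.11%), which is 2.11% in all. Genes that carry out cell division and genes of fibrillar collagen were among the largest falls. Among the largest rises were Igha, of immunoglobulin A, the receptor gene Bmpr1b, Nupr1, a stress-induced chromatin protein, and Fosb, an immediate early gene. The difference was at least 2-fold on the log2 scale for 140 of the 265 genes, and none of the 265 had overlapping arrays. Groups that do not overlap are common with 2 arrays each: 28.3% of all genes tested were higher on both old arrays and 26.9% lower. With each array's median set to 0, the median of all genes moved from 0.0035 to 0.12, and 169 genes rose while 75 fell. The main fit holds the 4 arrays of young islets at 11 mM as 1 group, although 2 of them lie in set A and 2 in the other set. A difference between the sets in these arrays therefore enters the spread of the main fit, and a gene that differs between them is harder to call. The count depends on the spread taken from the other arrays. It was 1193 (9.48%; 728 or 5.79% higher and 465 or 3.7% lower) when the array set was a term of the fit, and these included all 265 in the same direction. It was 46 without old replicate 1, 90 without old replicate 2, 85 without young replicate 1 and 76 without young replicate 2.

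**Figure D1:**
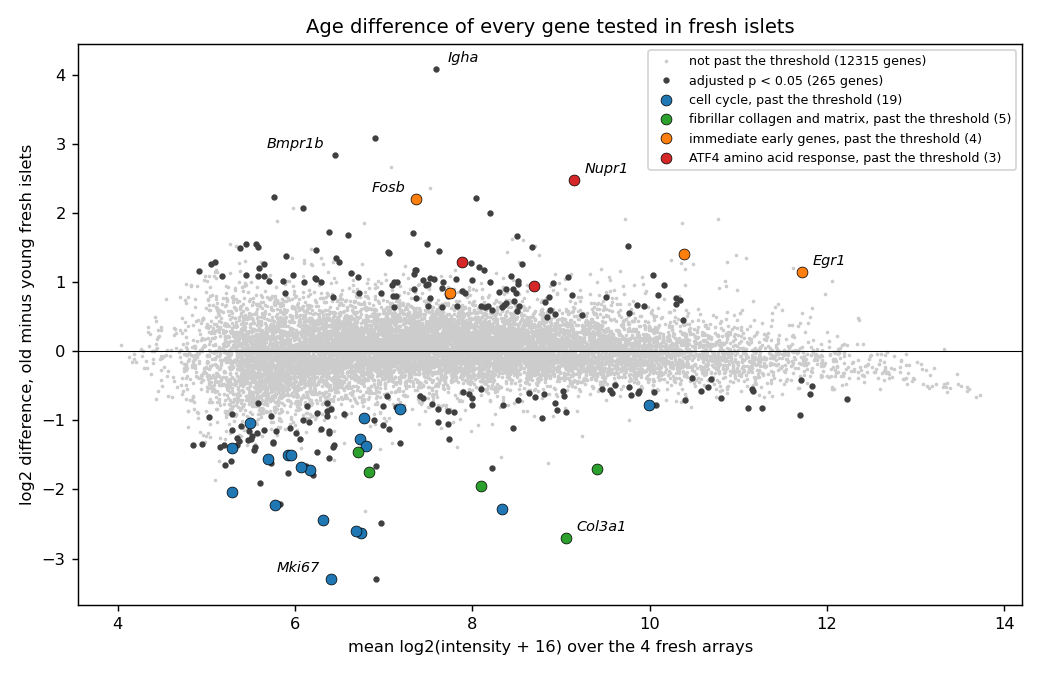
Each point is 1 of the 12580 genes, with the mean log2(intensity + 16) of the 4 fresh arrays on the x axis and the log2 difference old minus young on the y axis. The 265 dark or coloured points are past an adjusted p of 0.05. The 19 coloured cell cycle genes and 5 matrix genes all lie below 0, the 4 immediate early genes and 3 ATF4 pathway genes above it.

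The clearest group was the genes of cell division. Of 50 listed cell cycle genes, 39 could be tested, 10 were too dim and 1 is not named by the array annotation. Of the 39, 19 fell in old islets (1.11% of all genes fell), 20 did not pass and none rose. The median difference over the 39 was -1.03, against 0.0035 over all genes tested. Lower on both old arrays were 32 of the 39 (26.9% of all genes were). The number that fell was 26 with the array set in the fit, 16 with the acinar signal as a covariate and 10 with a stricter intensity filter. It was 8 without old replicate 1, 11 without old replicate 2, 10 without young replicate 1 and 9 without young replicate 2. In young islets at 11 mM, the arrays of the other set (B) gave a median for these 39 genes 0.19 above that of set A (0.071 for all genes).

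Mki67 encodes Ki-67, the standard marker of cycling cells. Its intensity was 278 and 224 on the young arrays and 10 and 12 on the old arrays. Both old values lie below the median of their array, while both young values are several times above it. The ratio of the group means was 22.8, and the log2 difference was -3.30 (SE 0.33, adjusted p = 1.75e-05 by limma). Mki67 kept its call under every alternative processing tried, its highest adjusted p being 0.00103.

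The mitotic genes followed the same order on the arrays. Cdc20, the activator of the anaphase-promoting complex, had 264 and 214 in young and 19 and 34 in old islets (-2.60, SE 0.25, adjusted p = 1.28e-05 by limma). Cdk1, the kinase that drives entry into mitosis, had 180 and 161 against 12 and 26 (-2.44, SE 0.35, adjusted p = 0.000751). Top2a, the topoisomerase that untangles replicated chromosomes, had 292 and 217 against 19 and 37 (-2.64, SE 0.29, adjusted p = 4.35e-05). The largest falls were chosen among called genes whose arrays do not overlap, so the separation of the ages in these genes is no further result. Pbk, a mitotic kinase, fell as far as Mki67, from 395 and 334 to 12 and 37 (-3.30, SE 0.34). Stmn1, which encodes the microtubule-destabilising protein stathmin, fell from 866 and 562 to 107 and 159 (-2.28, SE 0.28). Ect2 and Anln act in cytokinesis. Ect2 fell from 104 and 101 to 11 and 8 (-2.22, SE 0.33), and Anln from 132 and 68 to 15 and 19 (-1.76, SE 0.27). Ckap2, a spindle protein, fell by 2.21 (SE 0.33) and Ncaph, a condensin subunit, by 1.79 (SE 0.27). These 10 genes, Mki67 included, passed under every alternative in which they were tested, and Ect2 and Ckap2 were too dim for the stricter filter.

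Other members fell with less certainty. Birc5, which encodes survivin of the chromosomal passenger complex, had 56 and 72 in young islets and 1 and 6 in old islets (-2.04, SE 0.35, adjusted p = 0.00328 by limma). It did not pass without old replicate 1 (0.0691) or without young replicate 2 (0.0576). Nuf2, a kinetochore protein, had 93 and 65 against 5 and 14 (-1.90, SE 0.32), and it did not pass without old replicate 1 (0.0721) or young replicate 1 (0.0527). The further members that fell, named here after their values were seen, include Ccnb2, Ccna2, Ube2c, Cenpa, Bub1 and Pcna. Pcna, the replication clamp, had 1394 and 1261 in young and 752 and 773 in old islets (-0.79, SE 0.17). The 6 tested subunits of the Mcm replicative helicase, also singled out after their values were seen, did not pass. Mcm2 had 181 and 203 in young and 161 and 189 in old islets, Mcm7 had 340 and 402 against 373 and 350, and Ccne1, the cyclin E1 of the G1/S transition, had 18 and 47 against 24 and 43. Mcm5 (-0.97, adjusted p = 0.0757) and Mcm6 (-0.62, adjusted p = 0.0608) were lower on both old arrays.

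**Figure D2:**
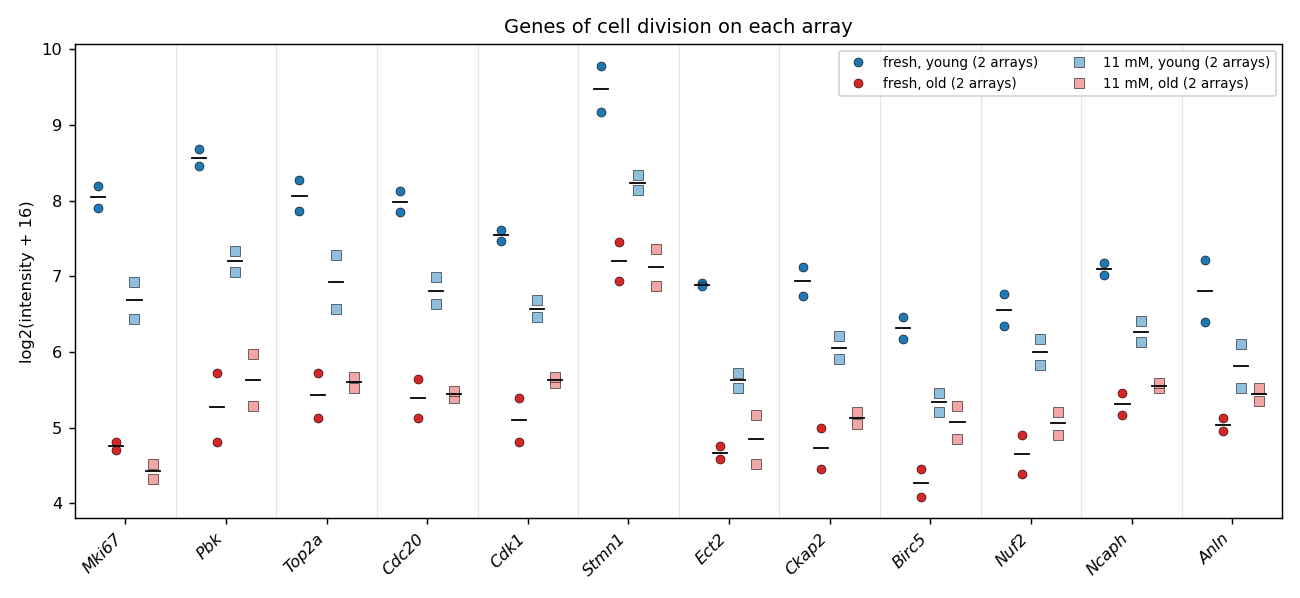
Points are single arrays, with log2(intensity + 16) on the y axis, for 12 genes of cell division that fell in old fresh islets. Circles are fresh islets and squares islets cultured at 11 mM glucose, blue young and red old, and a bar marks the mean of 2 arrays. In fresh islets each old point lies below both young points in all 12 genes, which were chosen among genes without overlap. The young points of cultured islets lie lower than those of fresh islets.

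The promoters of many mitotic genes carry a CHR element, TTTGAA on either strand, and CCAAT boxes, both known to recruit repressors and activators that time transcription to the cell cycle. Promoter windows of 250 bases before to 50 bases after the annotated start were taken from RefSeq (GRCm38.p6), which has one for 16 of the 19 cell cycle genes that fell. A CHR was present in 10 of these 16 windows (62.5%) and in 8 of 16 (50.0%) among the members that did not pass. It was present in 11.4% of the windows of all genes tested and in 18.2% of all 27025 promoters. A CCAAT box, on either strand, was present in 13 of the 16 and in 14 of the 16, and in 38.1% of the windows of all genes tested. A match is a description of the letters only. Neither motif contains the other, and no matches overlap in the stretches shown. The stretches just upstream of the start of Cdc20 (chr4:118437344-118437413, minus strand), Cdk1 (chr10:69352913-69353002, minus strand) and Top2a (chr11:99024190-99024299, minus strand) show the arrangement in 3 of the largest falls. Each is read 5' to 3' on the gene's strand, and capitals mark CHR elements (TTTGAA or its reverse complement TTCAAA) and CCAAT boxes (CCAAT or ATTGG).
Cdc20: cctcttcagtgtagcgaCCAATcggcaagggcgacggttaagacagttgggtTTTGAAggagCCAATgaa
Cdk1: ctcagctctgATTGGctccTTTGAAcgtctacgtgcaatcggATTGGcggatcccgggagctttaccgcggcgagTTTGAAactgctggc
Top2a: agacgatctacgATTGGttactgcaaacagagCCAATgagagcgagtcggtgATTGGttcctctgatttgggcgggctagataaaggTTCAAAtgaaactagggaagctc

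Regulators that act above the cell cycle moved less. Of 33 tested genes of D-type cyclins, CDK inhibitors and ageing regulators, 2 rose and 2 fell (0.994% and 1.11% of all genes). The other 29 did not pass, and the median of the list was -0.057. Ezh2, the methyltransferase of Polycomb repressive complex 2, had 109 and 108 in young and 25 and 60 in old islets (-1.16, SE 0.29, adjusted p = 0.0438 by limma). It did not pass without old replicate 1 (0.474), without young replicate 1 (0.18) or without young replicate 2 (0.181), and lost its call in 8 of 17 alternatives. Ccnd1, a D-type cyclin, had 1721 and 1634 against 959 and 1038 (-0.74, SE 0.20) and did not pass (adjusted p = 0.0626), though it did with the array set in the fit (0.00337). Ccnd2, the D-type cyclin that beta cells depend on, had 7527 and 7355 against 6555 and 5349 (-0.33, adjusted p = 0.247).

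The inhibitors named here did not pass. Cdkn2b had 123 and 188 in young and 191 and 171 in old islets, so that the groups overlapped. Cdkn1a had 143 and 131 against 129 and 113. Cdkn1b, the locus of p27, had 761 and 689 against 1298 and 1370 (0.87, SE 0.35, adjusted p = 0.223 by limma), and Cdkn2c, of p18, had 286 and 286 against 180 and 202 (-0.55, SE 0.17, adjusted p = 0.0979). Both were taken after their values were seen, and both passed with the array set in the fit (0.00114 and 0.0208). Cdkn2a, the locus of p16, was too dim to be tested. Bmi1, a Polycomb repressive complex 1 subunit that represses that locus, rose from 944 and 1020 to 1753 and 1433 (0.68, SE 0.13, adjusted p = 0.0103 by limma). It did not pass without old replicate 1 (0.192), young replicate 1 (0.0978) or young replicate 2 (0.0571). Kdm6b, a demethylase of the mark that Ezh2 writes, rose from 280 and 228 to 468 and 463 (0.84, SE 0.18, adjusted p = 0.0218). It did not pass when any 1 array was left out (0.0525 to 0.191) or with the mean of its probe sets (0.22, adjusted p = 0.455).

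Genes of fibrillar collagen and matrix were the next group to fall. Of 33 tested, 5 fell (1.11% of all genes fell), 28 did not pass and none rose, and the median was -0.70. On both old arrays 27 of the 33 were lower (26.9% of all genes were). The number that fell was 14 with the array set in the fit, and 2 without old replicate 1 or young replicate 1. Col3a1, the chain of type III collagen, was 1617 and 1116 in young and 174 and 212 in old islets (-2.71, SE 0.28, adjusted p = 2.05e-05 by limma), a ratio of means of 7.08. It passed under every alternative.

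The other 4 matrix genes that fell depended more on single arrays. Col1a2, a chain of type I collagen, had 706 and 389 in young and 113 and 136 in old islets (-1.95, SE 0.35). Without old replicate 1 its adjusted p was 0.0803 and without young replicate 1 it was 0.0932. Col5a2, a type V collagen chain, had 170 and 147 against 44 and 51 (-1.46, SE 0.25) and did not pass without old replicate 1 (0.0569). Sparc, a collagen-binding matricellular protein, had 1442 and 1021 against 383 and 340 (-1.71, SE 0.35). Its call was lost without old replicate 1 (0.0883), old replicate 2 (0.114) or young replicate 1 (0.135). Postn, or periostin, taken after its values were seen, had 210 and 178 against 35 and 60 (-1.75, SE 0.38). Col1a1, the other chain of type I collagen, had 68 and 64 against 18 and 27 (-1.10, SE 0.30) and did not pass (adjusted p = 0.0602), though it did with the array set in the fit (0.0206).

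Markers of stellate cells, fibroblasts and pericytes, the usual makers of these collagens, stood lower beside them. Of 16 tested, 2 fell (1.11% of all genes did) and 14 did not pass, with a median of -0.60. The summed intensity was 6505 and 4730 on the young arrays against 3552 and 3917 on the old arrays. Pdgfrb, the receptor that marks pericytes, had 301 and 270 against 152 and 144 (-0.88, SE 0.18, adjusted p = 0.0138 by limma). It lost its call without any 1 of the 4 arrays (0.0652 to 0.118) and its difference with the mean of its probe sets (0.011). Fap, fibroblast activation protein, had 53 and 38 against 10 and 16 (-1.08, SE 0.26, adjusted p = 0.0318), and it did not pass without any 1 array (0.0846 to 0.279). Pdgfra was too dim to be tested. Aplnr, the apelin receptor known from endothelial cells, fell from 317 and 248 to 32 and 42 (-2.49, SE 0.36, adjusted p = 0.00104), and did not pass with an offset of 1 (0.0964). None of 20 endothelial markers passed and their median was -0.092. Pecam1, the CD31 antigen, had 90 and 72 against 40 and 47 (-0.70, adjusted p = 0.446).

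The matrix genes also differed between the array sets at a fixed age. In young islets at 11 mM, all 5 matrix genes that fell with age were lower on the set B arrays than on the set A arrays. Of these, 4 were past the threshold, beside 1969 of all 12580 genes tested, and the median of the 5 was -0.88. For the whole matrix list that median was -0.16, and for the 19 cell cycle genes that fell it was 0.081. The fresh arrays are all of set A, and the part of whatever separates the arrays in the matrix differences was not tested.

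**Figure D3:**
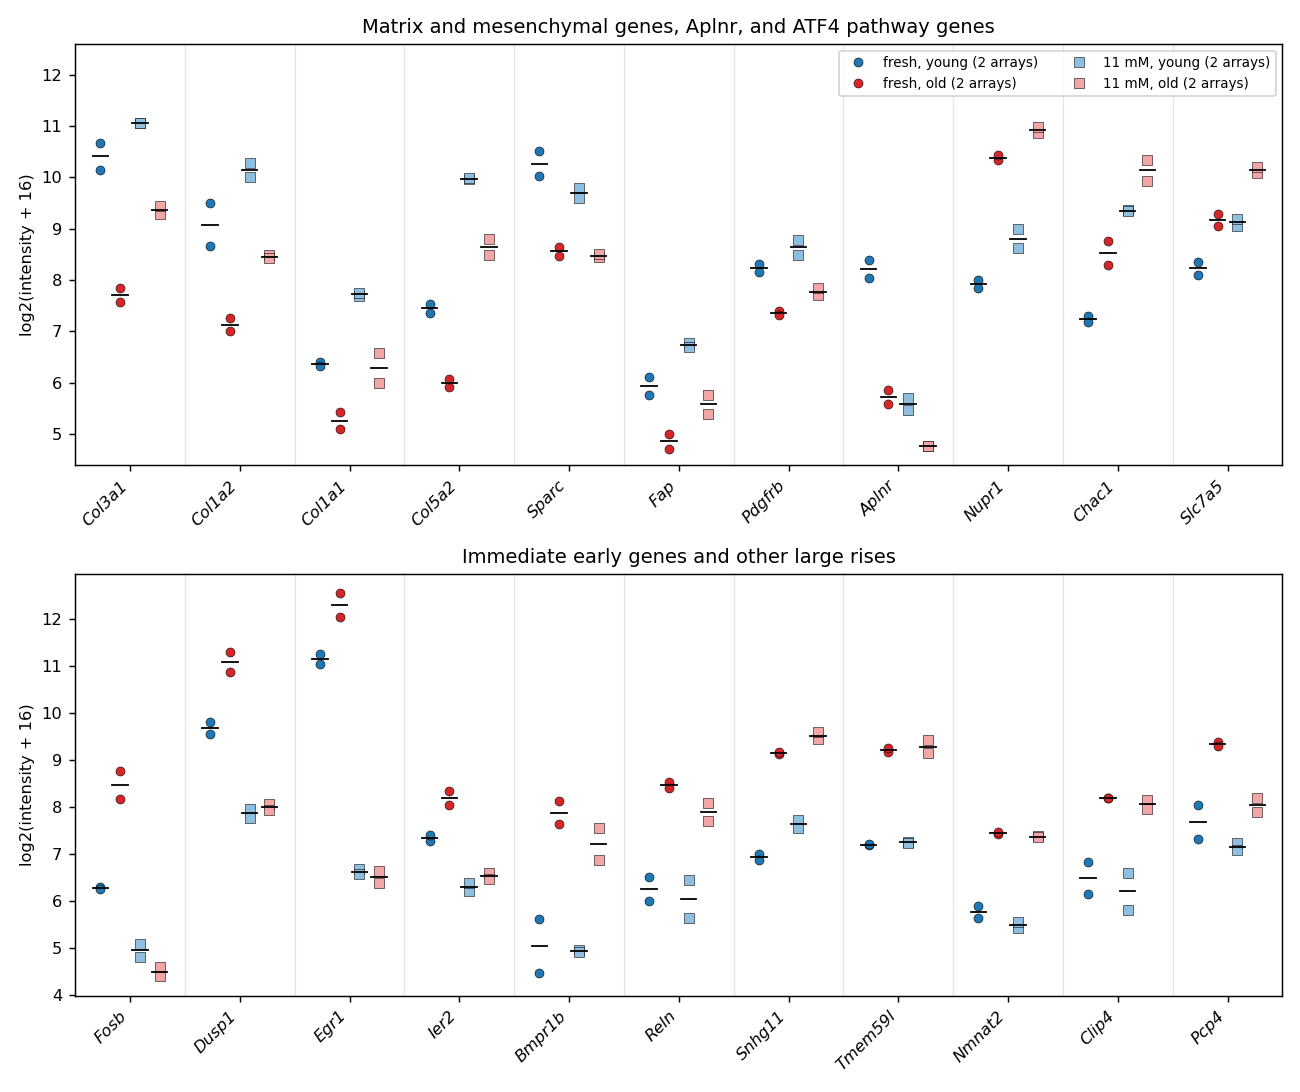
Points are single arrays, with log2(intensity + 16) on the y axis, for matrix, mesenchymal and ATF4 pathway genes with Aplnr (upper panel) and for immediate early genes and other large rises (lower panel). Symbols and bars are as for the cell division genes. Old and young fresh arrays do not overlap in any gene shown, which holds for every called gene. The immediate early genes lie lower in cultured islets of either age.

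Among the rises, Nupr1 had the smallest p. It encodes a small chromatin protein induced by amino acid shortage, endoplasmic reticulum stress and other insults. Its intensity was 239 and 212 in young and 1270 and 1375 in old islets (2.47, SE 0.22, adjusted p = 7.73e-06 by limma), a ratio of means of 5.86, and it passed under every alternative. Nupr1 is a target of ATF4, the transcription factor of the amino acid and integrated stress responses. Of 26 tested genes of that response, 3 rose (0.994% of all genes rose), 23 did not pass and none fell. The median was 0.49, and 20 of the 26 were higher on both old arrays (28.3% of all genes were).

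The other ATF4 pathway genes that rose were Chac1 and Slc7a5. Chac1, which degrades glutathione, had 142 and 129 in young and 299 and 417 in old islets (1.29, SE 0.25, adjusted p = 0.0103 by limma), and did not pass without old replicate 2 (0.14), young replicate 1 (0.0597) or young replicate 2 (0.0962). Slc7a5, a transporter of large neutral amino acids, had 258 and 310 against 517 and 606 (0.95, SE 0.24, adjusted p = 0.0492) and did not pass when any 1 array was left out (0.13 to 0.278), losing its call in 11 of 17 alternatives. The count of the list was 12 with the array set in the fit. It was 1 without old replicate 2 or young replicate 1 and 2 without either other array. Atf4 itself (0.36), Asns (0.43), Ddit3 (0.48) and Trib3 (1.04), listed here after their values were seen, did not pass.

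In young islets at 11 mM, set B lay above set A by a median of 0.62 over these 26 genes. Of the 26, 13 were past the threshold in that direction, beside 3045 of all 12580 genes tested. Nupr1 differed by 0.07 there, Chac1 by 0.81 and Slc7a5 by 0.88. The part of the arrays in the ATF4 pathway differences was not tested.

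A composite element of this pathway, TGATGNAA read on either strand, was present in the RefSeq promoter windows of both genes with a window among the 3 that rose. It was present in 4 of the 22 windows of members that did not pass and in 2.22% of the 10203 windows found for the genes tested. It is shown for Nupr1 (chr7:126625531-126625590, minus strand) and Chac1 (chr2:119351037-119351096, plus strand), on the gene's strand 5' to 3', with the element in capitals, here as its reverse complement. It contains neither the CHR nor the CCAAT box.
Nupr1: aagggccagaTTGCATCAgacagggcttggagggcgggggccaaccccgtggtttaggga
Chac1: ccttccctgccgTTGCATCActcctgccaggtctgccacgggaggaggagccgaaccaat

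Other stress pathways moved in single genes. Of 28 genes of endoplasmic reticulum chaperones and the unfolded protein response, 1 rose (0.994% of all genes did). It was Ern1, the sensor IRE1, which rose from 747 and 872 to 1580 and 1304 (0.82, SE 0.20, adjusted p = 0.036 by limma). It lost that call without any 1 array. With the mean of its probe sets its log2 difference was 0.02 and it did not pass (adjusted p = 0.971 by limma). Of 19 cytosolic heat shock genes 2 fell (1.11% of all genes did). Hspa8, the constitutive Hsp70 chaperone, had 5799 and 6373 in young and 3935 and 3593 in old islets (-0.69, SE 0.18). It did not pass without any 1 array or with the mean of its probe sets, where its log2 difference was -0.18. Chordc1, an Hsp90 cochaperone, had 1370 and 1202 against 834 and 865 (-0.59, SE 0.15) and did not pass without any 1 array (0.102 to 0.268). Of 25 antioxidant genes 2 rose and 1 fell (0.994% and 1.11% of all genes). Txnrd1, thioredoxin reductase, rose from 574 and 508 to 961 and 918 (0.78, SE 0.16) and Gstm2, a glutathione transferase, from 94 and 119 to 214 and 255 (1.03, SE 0.25). With the mean of its probe sets Txnrd1 did not pass (0.37, adjusted p = 0.477). Gpx2, a glutathione peroxidase of epithelia, fell from 254 and 274 to 122 and 122 (-1.02, SE 0.22). None of the 3 passed when any 1 array was left out, with adjusted p of 0.0522 to 0.14 for Txnrd1, 0.105 to 0.248 for Gstm2 and 0.0843 to 0.145 for Gpx2.

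Immediate early genes, which are induced within minutes of a stimulus, stood higher in old fresh islets. Of 31 tested, 4 rose (0.994% of all genes rose), 27 did not pass and none fell. Their median was 0.50, and 17 were higher on both old arrays (28.3% of all genes were). Fosb, an AP-1 subunit, had 62 and 60 in young and 421 and 271 in old islets (2.20, SE 0.30, adjusted p = 0.000524 by limma). Dusp1, a phosphatase of MAP kinases, had 883 and 733 against 2501 and 1860 (1.40, SE 0.25, adjusted p = 0.00493). Dusp1 did not pass without old replicate 1 (0.112) or young replicate 2 (0.0805), and Fosb did not pass with an offset of 1 (0.0894). Egr1, a zinc finger factor, had 2425 and 2082 against 5958 and 4165 (1.14, SE 0.28) and Ier2 had 138 and 152 against 245 and 305 (0.85, SE 0.20). Neither passed when any 1 array was left out (0.0778 to 0.366 for Egr1 and 0.0883 to 0.244 for Ier2). The list's count was 10 with the array set in the fit and 8 with the acinar signal as a covariate, and 1 to 2 without single arrays, 1 of them without old replicate 1. Fos itself, taken after its values were seen, had 4425 and 4553 against 7199 and 5258 (0.45), and did not pass.

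The largest rise of all was in immunoglobulin genes, and it rested on 1 array. Igha, the constant region of immunoglobulin A, had 6 and 85 in young and 204 and 2848 in old islets (4.07, SE 0.81, adjusted p = 0.0109 by limma). Igkv8-30, a kappa light chain variable gene, had 9 and 52 against 93 and 1106 (3.08, SE 0.65, adjusted p = 0.0168). Old replicate 2 had more than 10 times the signal of old replicate 1 in both. Without it the difference was 2.22 for Igha and 1.40 for Igkv8-30, and neither passed (adjusted p = 0.181 and 0.199). They did not pass without young replicate 1 either (0.165 and 0.19). Immunoglobulin genes are a large family, and a probe set may take signal from several members. Jchain, which joins IgA dimers and marks plasma cells, had 7 and 110 against 80 and 1184 and did not pass (adjusted p = 0.0684). None of the 12 tested markers of T and B lymphocytes passed, with a median of 0.14.

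Other large rises held whichever array was left out. Bmpr1b, a type I receptor for bone morphogenetic proteins, had 33 and 6 in young and 262 and 183 in old islets (2.84, SE 0.33, adjusted p = 7.98e-05 by limma). Snhg11, a long noncoding host gene of small nucleolar RNAs, had 112 and 100 against 543 and 560 (2.22, SE 0.27, adjusted p = 0.000158). Tmem59l, a membrane protein known from brain, had 130 and 131 against 555 and 589 (2.0, SE 0.26, adjusted p = 0.000197). Nmnat2, the NAD-synthesising enzyme that maintains axons, had 43 and 34 against 155 and 160 (1.68, SE 0.21, adjusted p = 0.000158). Clip4, a CAP-Gly linker protein, had 97 and 55 against 276 and 275 (1.70, SE 0.25, adjusted p = 0.00114). These 5 genes passed under every alternative in which they were tested, which leaves out the stricter filter for Bmpr1b and Nmnat2. The largest rises were chosen among called genes whose arrays do not overlap, so the separation of the ages in these genes is no further result.

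The remaining large rises were less secure. Reln, which encodes reelin, a secreted guide of neuronal migration, had 48 and 75 in young and 351 and 320 in old islets (2.20, SE 0.37). It did not pass without old replicate 1 (0.0567) or young replicate 1 (0.0577). Pcp4, a calmodulin-binding peptide of Purkinje cells, had 247 and 143 against 651 and 612 (1.66, SE 0.29), and it did not pass without old replicate 1 (0.0588) or young replicate 2 (0.0954). Rasd2, a Ras-like protein of the striatum, had 9 and 9 against 119 and 86 (2.23, SE 0.51) and did not pass without any 1 array (0.105 to 0.239) or with the mean of its probe sets (0.365). B3gat1, the glucuronyltransferase of the CD57 epitope, had 11 and 8 against 52 and 66 (1.55, SE 0.34) and did not pass without any 1 array (0.0865 to 0.162). Fbxo44, an F-box protein, had 30 and 8 against 129 and 118 (2.07, SE 0.39) and did not pass without old replicate 1 (0.0883), old replicate 2 (0.0552) or young replicate 2 (0.13), or with the mean of its probe sets (0.122). Markers of Schwann cells and neurons did not move with these genes as a list. Of 13 tested, 1 passed, and it fell (1.11% of all genes did). It was Pmp22, a myelin protein also made outside nerve, with 347 and 288 against 110 and 135 (-1.27, SE 0.22). Its adjusted p was 0.0803 without old replicate 1 and 0.0607 without young replicate 1.

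Of 25 tested genes of beta cell function, 1 fell (1.11% of all genes did) and 24 did not pass, with a median of -0.30. On both old arrays 8 were higher and 12 lower (28.3% and 26.9% of all genes). A fit that holds the array set called 3 higher and 3 lower (5.79% and 3.7% of all genes). Vamp2, a synaptobrevin of granule fusion taken after its values were seen, had 233 and 207 in young and 555 and 569 in old islets (1.29, SE 0.46, adjusted p = 0.169 by limma, 3.21e-05 with the array set in the fit). Of 17 islet transcription factors none passed, with a median of 0.082. Pcsk1, the convertase that cleaves proinsulin, had 3333 and 3184 in young and 1855 and 1810 in old islets (-0.82, SE 0.18, adjusted p = 0.0234 by limma), and it did not pass without any 1 array (0.113 to 0.154). Pdx1, the beta cell homeobox factor, had 1023 and 815 against 1214 and 1052 (0.30, adjusted p = 0.722). Ucn3, the urocortin of mature beta cells, had 2594 and 2969 against 4020 and 4132 (0.55, adjusted p = 0.526). Slc2a2, the glucose transporter GLUT2, had 8942 and 8060 against 7189 and 5715 (-0.40, adjusted p = 0.649). Ucn3 was higher and Slc2a2 lower on both old arrays, and neither passed.

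The hormone genes were lower on both old arrays and lowest on old replicate 2. Ins2 had 5224 and 5148 in young and 4713 and 2688 in old islets (-0.54, adjusted p = 0.386 by limma), and Iapp, or islet amyloid polypeptide, 15241 and 14714 against 12599 and 8380 (-0.54, adjusted p = 0.16). Gcg had 14839 and 14932 against 12016 and 8346 (-0.57, adjusted p = 0.237), Sst 12230 and 11887 against 9535 and 7953 (-0.47, adjusted p = 0.207) and Ppy 16917 and 16602 against 13528 and 8694 (-0.63, adjusted p = 0.2). None of the 12 tested genes of other endocrine cells passed, with a median of -0.49, though 6 were lower with the array set in the fit. The bacteriophage control cre-3, spiked onto each array, moved in the same order, 11799 and 12356 on the young arrays and 9823 and 6649 on the old arrays. The spiked control bioB-3 had 451 and 479 against 313 and 164. The part of what moves the spiked controls in the hormone signals was not tested.

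**Figure D4:**
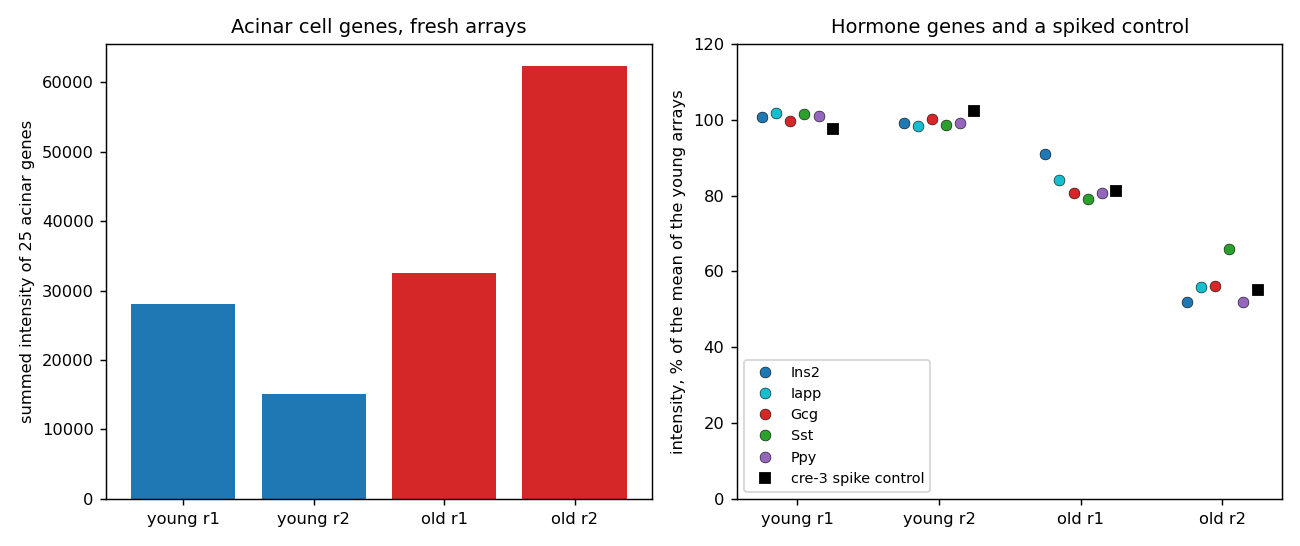
Left, bars give the summed intensity of 25 acinar cell genes on each fresh array, young in blue and old in red. Right, points give the intensity of 5 hormone genes and of the cre-3 spiked control on each fresh array, as a percent of the mean of the young arrays. Old replicate 2 has the highest acinar sum, 62383, and the lowest hormone and control signals.

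Acinar cell genes differed between the arrays of each age as well as between ages. Their summed intensity over 25 tested genes was 28052 and 15153 on the young arrays and 32519 and 62383 on the old arrays, a ratio of means of 2.20. An exact two-sided permutation test over the 4 arrays gave p = 0.333, the smallest that 2 arrays against 2 can give. Of the 25 genes 24 had a positive difference and 14 were higher on both old arrays (28.3% of all genes were). In the test 1 rose (0.994% of all genes did) and 24 did not pass, and the median was 1.14. Cpa1, carboxypeptidase A1, had 1295 and 602 in young and 2399 and 4738 in old islets (1.91, SE 1.10, adjusted p = 0.421 by limma). Pla2g1b, the pancreatic phospholipase, was the gene that rose, from 40 and 22 to 69 and 257 (1.72, SE 0.41, adjusted p = 0.0326). It did not pass without old replicate 2 (0.394), young replicate 1 (0.0781) or young replicate 2 (0.244). In cultured islets of the study the same sum was 519 to 8815, and 805 to 1280 on the 4 arrays at 11 mM used here. With the mean log2 acinar signal as a covariate, 85 genes rose and 143 fell. The genes with the largest falls, Mki67, Pbk and Col3a1, and the rises of Nupr1 and Bmpr1b kept their calls in that fit. Of the 57 called genes named by the rule 13 did not pass in it (adjusted p = 0.0556 to 0.112): Slc7a5, Egr1, Ern1, Gpx2, Gstm2, Hadha, Vegfa, Cacna1a, B3gat1, Pla2g1b, Fap, Chordc1 and Ebp.

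Other lists gave 1 or 2 called genes each, beside 0.994% of all genes tested that rose. Ppargc1a, the coactivator of mitochondrial biogenesis, rose from 51 and 30 to 135 and 115 (1.34, SE 0.24, adjusted p = 0.00606 by limma), and did not pass without old replicate 1 (0.0937) or young replicate 2 (0.107). Hadha, of fatty acid oxidation, rose from 199 and 206 to 347 and 310 (0.65, SE 0.16). These were the only 2 of 19 tested fatty acid oxidation and ketone genes past the threshold. The list leaned the other way, with a median of -0.16 and 13 negative differences. On both old arrays 8 of its genes were lower and 6 higher (26.9% and 28.3% of all genes). None of 47 genes of oxidative phosphorylation passed. Vegfa, the angiogenic factor, rose from 1040 and 942 to 1752 and 1581 (0.74, SE 0.17), the only one of 23 hypoxia and glycolysis genes past the threshold. Cacna1a, a calcium channel subunit, rose from 116 and 108 to 231 and 235 (0.96, SE 0.25), 1 of 25 genes of ion channels and incretin receptors. Without any 1 array Hadha (0.114 to 0.286), Vegfa (0.0885 to 0.242) and Cacna1a (0.169 to 0.247) did not pass. With the mean of its probe sets Cacna1a differed by 0.26.

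Oat, ornithine aminotransferase, is among the genes that mature beta cells keep low, and fell from 280 and 297 to 124 and 138 (-1.05, SE 0.24, adjusted p = 0.0236 by limma). Sgce, an imprinted sarcoglycan gene, fell from 195 and 215 to 103 and 145 (-0.67, SE 0.17, adjusted p = 0.0391), the only one of 22 imprinted and growth network genes past the threshold. Ebp, of cholesterol synthesis, fell from 535 and 543 to 303 and 393 (-0.62, SE 0.15, adjusted p = 0.0419), 1 of 20 on its list. Of all genes tested 1.11% fell. Leaving out single arrays ended the call of Oat for any array (0.103 to 0.201), and of Sgce (0.118 to 0.415) and Ebp (0.165 to 0.408) for any array other than old replicate 2. Igf2bp3, an RNA-binding protein of fetal tissue, had 210 and 223 in young and 125 and 143 in old islets (-0.63, adjusted p = 0.213). Igf2, the fetal growth factor, had 66 and 59 against 78 and 79 (0.27, adjusted p = 0.815). Neither of the latter passed, nor did any of 13 early developmental RNA-binding and HMG genes.

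None of 19 macrophage markers, 6 genes of MHC class II or 33 genes of MHC class I and interferon passed. Cd74, the invariant chain of MHC class II, had 141 and 131 in young and 219 and 256 in old islets (0.73, SE 0.25, adjusted p = 0.14 by limma). Reg2, a regenerating protein, had 816 and 341 against 135 and 220 (-1.53, SE 0.66, adjusted p = 0.264) and passed with the acinar covariate (-2.41, adjusted p = 0.0282). Cd74 was higher and Reg2 lower on both old arrays.

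The age comparison of islets cultured at 11 mM glucose used other samples of the same array set. It called 1263 genes higher (10% of those tested) and 702 lower (5.58%) in old islets. Its fit holds the array set and the main fresh fit does not, so the counts and shares below compare unlike fits. With the array set in the fit, the fresh comparison called 728 genes higher (5.79%) and 465 lower (3.7%). Of the 125 genes that rose in fresh islets, 81 also rose at 11 mM (64.8% of the fresh rises and 6.41% of the rises at 11 mM). In all 116 had the same sign, and no fresh rise was called lower. Their median difference was 1.01 fresh and 0.73 at 11 mM. Of the 140 that fell, 69 also fell at 11 mM (49.3% and 9.83%), 134 had the same sign and none was called higher. Their medians were -1.06 fresh and -0.57 at 11 mM. Both groups of genes were chosen for passing in the fresh arrays, which enlarges their fresh medians. The medians therefore do not compare the size of the age difference between fresh and cultured islets. The controls split by age on the arrays at 11 mM as on the fresh ones. The 3' Gapdh control was 1342 and 1178 on the young arrays and 2987 and 4134 on the old arrays, and bioB-3 was 355 and 410 against 226 and 217. Whether young and old arrays of set A were processed together is not given in the sources used here, and the part of such a difference in the genes shared by both comparisons was not tested. Over all genes tested, 52.1% had a positive and 47.9% a negative difference at 11 mM.

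Part of the cell cycle genes fell at 11 mM as well. Mki67 had 71 and 106 in young and 7 and 4 in old cultured islets (-2.26, adjusted p = 1.15e-05 by limma), and Top2a 79 and 139 against 35 and 30 (-1.32). Cdk1 differed by -0.94 at 11 mM, where it did not pass (adjusted p = 0.0688), and Birc5 by -0.26. Of the 39 cell cycle genes 11 fell and 1 rose at 11 mM (5.58% and 10% of all genes). In fresh islets 26 fell with the array set in the fit. The median was -0.50 at 11 mM against -1.03 in fresh islets. No cell cycle gene passed the test of the difference between the comparisons. Col3a1 had 2109 and 2116 against 611 and 680 (-1.69). At 11 mM 16 of 33 matrix genes fell (5.58% of all genes did), with a median of -0.69. In fresh islets 14 fell with the array set in the fit. Nupr1 had 378 and 492 against 1846 and 2018 at 11 mM (2.12, adjusted p = 2.64e-06 by limma). There 11 of 26 ATF4 pathway genes rose (10% of all genes did), against 12 in fresh islets with the array set in the fit. Bmpr1b (2.28), Tmem59l (2.03), Nmnat2 (1.88), Snhg11 (1.87), Clip4 (1.85) and Rasd2 (2.83) rose at 11 mM too.

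The immediate early genes did not follow age after culture. At 11 mM Fosb had 12 and 18 in young and 8 and 5 in old islets, and Egr1 86 and 79 against 67 and 83. None of the 31 passed there and their median was 0.093. The difference between the age contrasts passed for Fosb (2.66, adjusted p = 0.0293 by limma) and not for Dusp1 (1.27, adjusted p = 0.0901) or Egr1 (adjusted p = 0.347). That test called 3 genes in all (0.0238%), 2 of them relatively higher in fresh islets (0.0159%) and 1 lower (0.00795%), with 977 at an unadjusted p under 0.05. Igha had 7 and 5 against 27 and 27 at 11 mM (0.97, adjusted p = 0.45).

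**Figure D5:**
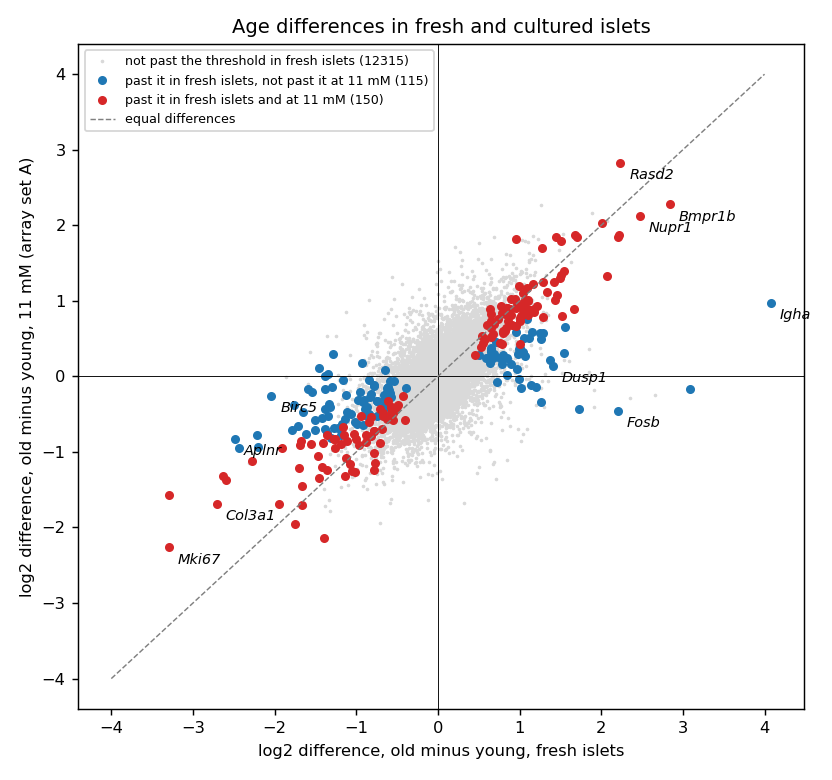
Each point is a gene, with its log2 difference old minus young in fresh islets on the x axis and at 11 mM glucose on the y axis, and no array enters both. Of the 265 genes called in fresh islets, 150 are also called at 11 mM (red) and 115 are not (blue), and the dashed line marks equal differences. Mki67, Col3a1, Nupr1 and Bmpr1b have the same sign on both axes, and Fosb lies at 2.20 on the x axis and -0.46 on the y axis.

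At a fixed age, many genes differed between the 2 array sets. In young islets at 11 mM, 3045 of the 12580 genes tested were called higher in set B and 1969 lower. Beside these numbers for all genes, the genes that rose in old fresh islets were called higher in set B for 34 of 125 and lower for 9. Those that fell were called lower for 12 of 140 and higher for 8. The medians of the genes that rose and of those that fell were 0.14 and -0.038, beside 0.071 for all genes. Set B minus set A was 0.88 for Mki67, 0.42 for Tmem59l, -0.57 for Snhg11, -0.32 for Bmpr1b and -0.23 for Nmnat2. Past the threshold were, among others, Sparc (-1.25), Col1a2 (-0.88), Aplnr (-0.87), Rasd2 (1.26), Fbxo44 (1.26) and Dusp1 (0.77). All arrays of both age comparisons lie in set A. A difference between the sets therefore does not measure one within set A, and the part of the latter in the age differences was not tested.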

How the data were processed

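RNA intensity was read from the authors' deposited table of 26 arrays. Per the submitters' processing notes it was made with MAS5, with no version in the sources used here. The intensity values are linear whole numbers already scaled by the authors to a trimmed mean of 150, as computed here. Per the labels' protocols, labelling started from 50 ng of RNA.

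Of 45101 probe sets, 34945 carry 1 symbol in the platform annotation, 932 carry several, 9160 carry none and 64 are controls. For 34741 the symbol was updated through a GRCm38.p6 gene table. Probe sets above their array's median on at least 2 arrays were kept (23047), and the brightest stood for a gene.

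Values were analysed as log2(intensity + 16) with limma 3.58.1 in R 4.3.3, with 12 group means over all 26 arrays (14 residual and 5.27 prior degrees of freedom) and an intensity trend. The comparison at 11 mM adds the array set, which the labels do not name, as a factor. On simulated data with 12580 genes the fresh comparison recovered 53% of log2 changes of 1 and 96% of changes of 2, with 5 unchanged genes called. The simulated noise was independent between genes and held no shift shared by a whole array. Real arrays may hold such shifts, so the recovery and the false calls may differ in them.

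Named genes are the 15 largest rises and falls among called genes whose arrays do not overlap between the ages. Up to 4 called members of each list and a fixed set of islet genes were added. Members and lists were chosen with earlier results of these data known. Offsets, filters, scalings, probe set choice, fits and single arrays were varied. H19, Prlr, Amy2b, Ddx3y, Ins1 and Mafa, not named by the annotation, were not analysed here. Precision is limited by the number of arrays.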

Additional observations from a re-analysis of the deposited data

Results flagged for a closer look

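For 3 genes the age difference in fresh islets differed from that at 11 mM by a test of the difference itself, on arrays that the comparisons do not share. Fosb, an AP-1 subunit, was higher in old fresh islets (62 and 60 in young, 421 and 271 in old) and low at 11 mM at both ages (12 and 18, then 8 and 5), a difference of 2.66 (adjusted p = 0.0293 by limma). Gstp1, a glutathione transferase, was higher in old fresh islets (1415 and 1343, then 1972 and 2021) and lower in old islets at 11 mM (7168 and 7399, then 4752 and 5275), a difference of 1.07 (adjusted p = 0.0167). Ap2m1, a subunit of the clathrin adaptor, was 225 and 267 in young and 297 and 244 in old fresh islets, where the ages overlap, and 145 and 149 against 320 and 388 at 11 mM, a difference of -1.05 (adjusted p = 0.0428).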

How the results depend on the processing

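The fresh comparison called 265 genes, and 178 to 341 under other offsets, filters, scalings, probe set rules and without the trend. It called 1193 with the array set as a block, 1402 with the arrays of set A alone, 671 with the 4 fresh arrays alone and 46 to 90 with 1 array left out. Between the fresh old and fresh young arrays, the correlation of the deviations of same-numbered arrays was -0.0093. That value does not cover the other groups. A replicate block added to the array set gave 2100 called genes, against 1193 without it. Whether same-numbered arrays share a batch was not tested. At 11 mM the count was 730 to 1721 with 1 array left out, against 1965. The test of the difference called 5 genes with an offset of 64, 1 with the stricter filter, 1 with quantile normalization, 16 with the replicate block, 8 with the acinar covariate and 0 to 7 with 1 array left out. Signs turned for Cdkn2b (-0.052 to 0.501 with 1 array left out, negative without young replicate 1), for Cpa1 (-0.14) and Pdx1 (-0.12) with the acinar covariate and for Pdgfrb with the mean of its probe sets, where it was 0.011. The acinar ratio was 1.51 to 3.13 with 1 array left out and 2.16 from mean log2 values. Of 57 called genes named, 17 passed in every setting they could be tested in (Ect2, Ckap2, Bmpr1b and Nmnat2 are too dim for the stricter filter) and 38 were lost without at least 1 array. The cause was not tested.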

Other observations

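In 4 clock genes, chosen after their values were seen, the young arrays differed from each other more than the group means did. Dbp, an output gene of the circadian clock, had 1190 and 213 in young and 1205 and 919 in old fresh islets. Nr1d2, a repressor of the clock, had 3138 and 914 against 2859 and 2310. Arntl, which encodes the clock activator BMAL1 and runs opposite to Dbp in the daily cycle, had 158 and 320 against 112 and 132, and Cry1 had 120 and 311 against 116 and 126. None of 18 clock genes passed (2.11% of all genes did). With the array set in the fit 3 rose and 1 fell (5.79% and 3.7% of all genes). In each of these 4 genes young replicate 1 lay near or among the old arrays and young replicate 2 apart.

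Cytosolic ribosomal protein genes stood slightly lower in old islets as a list. None of 36 passed, 30 were lower on both old arrays (26.9% of all genes were), and the median was -0.21.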
